A study of Mus musculus with 8 samples.

Results

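Freshly isolated stroma of the WT mouse spleen was compared with the splenocytes of WT spleen on Illumina MouseRef-8 bead arrays. It takes the 4 arrays labelled as these preparations, 2 of fresh WT stroma and 2 of WT splenocytes, out of 8 arrays in the series. A probe entered the test when the 2 arrays of stroma or the 2 arrays of splenocytes (or all 4) detected it above the negative control beads, at a detection p below 0.05, which left 11731 of the 24613 probes on the array. All mice were C57BL/6. WT mice carried both copies of the lymphotoxin beta receptor gene (genotype LTbR+/+), and the other arrays, used here for the estimate of spread and for context, held fresh stroma of LTbR-/- mice (LTbR-KO) and cultured stroma of LTbR+/+ mice. The study prepared both fresh fractions mechanically and without enzymes or sorting: spleens were rubbed over a mesh, the retained tissue was taken as stroma and the cells washed through it as splenocytes. Neither fraction is therefore a pure cell type. The series calls the paired arrays of a group technical replicates of an extract, whereas the study's supplementary text calls them biological replicates. The p-values below therefore measure the spread between arrays, which may hold no variation between mice. How many mice went into an extract is not given in the sources used here.

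The spleen filters blood through its red pulp and mounts immune responses in its white pulp. Its fixed framework consists of reticular fibroblasts, contractile cells of the capsule, trabeculae and arteries, and the endothelium of arterioles and sinuses. Reticular cells and follicular dendritic cells secrete the chemokines that sort T cells and B cells into separate zones. Lymphocytes in turn display lymphotoxin, the ligand of the lymphotoxin beta receptor (LTβR) on stromal cells, and this exchange maintains the white pulp. The comparison asks which transcripts belong mainly to the retained framework and which to the cells that wash out of it.

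Of the 11731 probes tested, 6905 (58.9%) differed between the fractions at an adjusted p under 0.05 (limma, Benjamini-Hochberg over the tested probes), 2990 higher in stroma (25.5%) and 3915 lower (33.4%). Among the probes called higher, 702 exceeded 4-fold and 157 exceeded 16-fold. Among the probes called lower, 335 exceeded 4-fold and 0 exceeded 16-fold. Signal intensities of the 2 stroma arrays correlated across probes with r = 0.987 and those of the 2 splenocyte arrays with r = 0.992, against 0.767 to 0.780 between a stroma and a splenocyte array; probes are not independent replicates, and these values are descriptive. The log2 difference between the 2 arrays of a group had an SD of 0.29 over probes in stroma and 0.23 in splenocytes. Detection itself separated the fractions. There were 991 probes detected on both stroma arrays and on neither splenocyte array, and 651 detected on both splenocyte arrays and on neither stroma array. The remaining probes were detected on all 4 arrays (9303) or on 3 of them (348 with both stroma arrays, 438 with both splenocyte arrays).

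**Figure D1:**
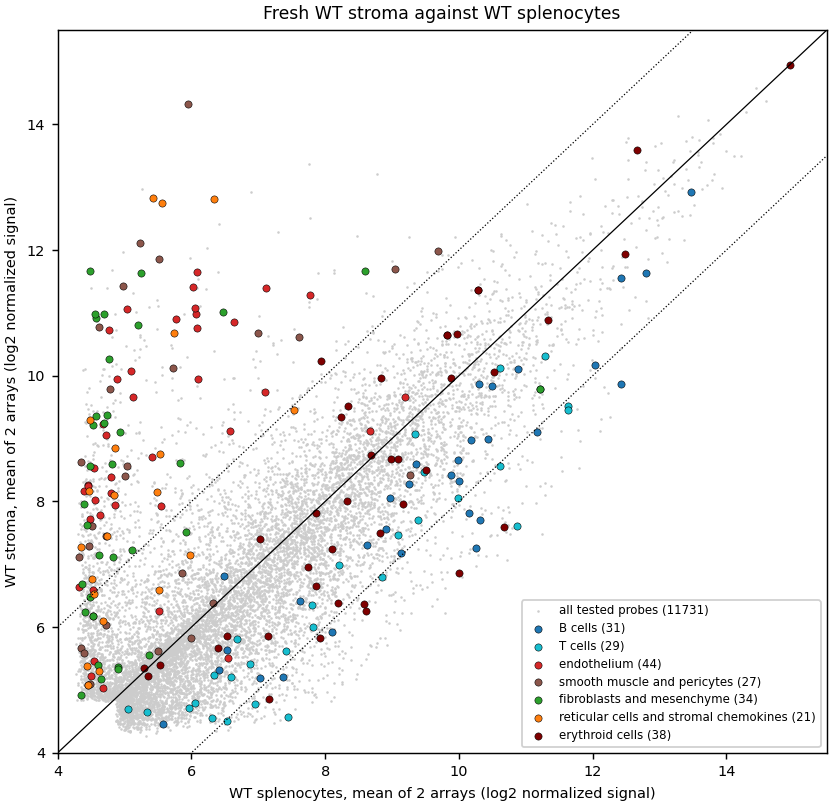
Mean log2 normalized signal of the 2 WT stroma arrays (vertical) against that of the 2 WT splenocyte arrays (horizontal) for the 11731 tested probes (grey) and for the measured genes of 7 marker lists (colours, number of genes in the key). The solid line marks equal signal and the dotted lines a 4-fold difference; endothelial, smooth muscle, fibroblast and reticular genes lie mostly above the upper dotted line, while B and T cell genes lie mostly below the solid line, 7 B cell and 8 T cell genes beyond the lower dotted line.

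To describe genes, each symbol was represented by its brightest tested probe, which gave 8619 genes, of which 57.3% were called, 28.3% higher and 29% lower in stroma. The median log2 difference over these genes was -0.036. Levels are given below as log2 normalized signal on each array, stroma first, and they compare the fractions for a single probe, since signals of different probes are not on a common scale. For probes that went undetected throughout the dimmer group the difference is given as a lower bound, the bright group's mean set against the higher of the array's lowest detected signal and the probe's own signal. In such bulk samples, fewer cells of a type and less RNA per cell cannot be told apart. Marker lists were used to describe the fractions. Their members were chosen with earlier results of these data known, so they are not an independent check of the labels. A gene may stand in more than 1 list. Each count of list members below is to be read against the shares over all genes, 28.3% higher and 29% lower. These shares are not a like comparator for members detected on neither array of 1 fraction, which entered the test through the other fraction alone.

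The marker lists differed in direction by cell type. In stroma, 32 of 34 measured fibroblast genes, 23 of 27 smooth muscle and pericyte genes, 41 of 44 endothelial genes and 21 of 21 genes of reticular cells and stromal chemokines were higher, against 28.3% of all genes. Of these measured genes, 19, 11, 17 and 10 were detected on neither splenocyte array and entered the test through stroma alone. Among all 991 such probes 895 were called higher and 0 lower, so 28.3% is not a like comparator for them. In stroma 29 of 31 B cell genes, 28 of 29 T cell genes and 17 of 18 NK and cytotoxic genes were lower, against 29% of all genes. The same limit holds for the 1, 6 and 6 of them detected on neither stroma array. Leukocyte RNA was nevertheless present in the stroma fraction: the median level over the 31 B cell genes was 8.31 and 8.25 on the stroma arrays and 9.88 and 10.04 on the splenocyte arrays, and over the 29 T cell genes 6.08 and 6.62 against 7.93 and 7.89. The splenocyte fraction held little framework RNA, with medians over the 44 endothelial genes of 5.10 and 4.98 against 9.07 and 8.99 in stroma, and 17 of these 44 genes detected on neither splenocyte array.

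**Figure D2:**
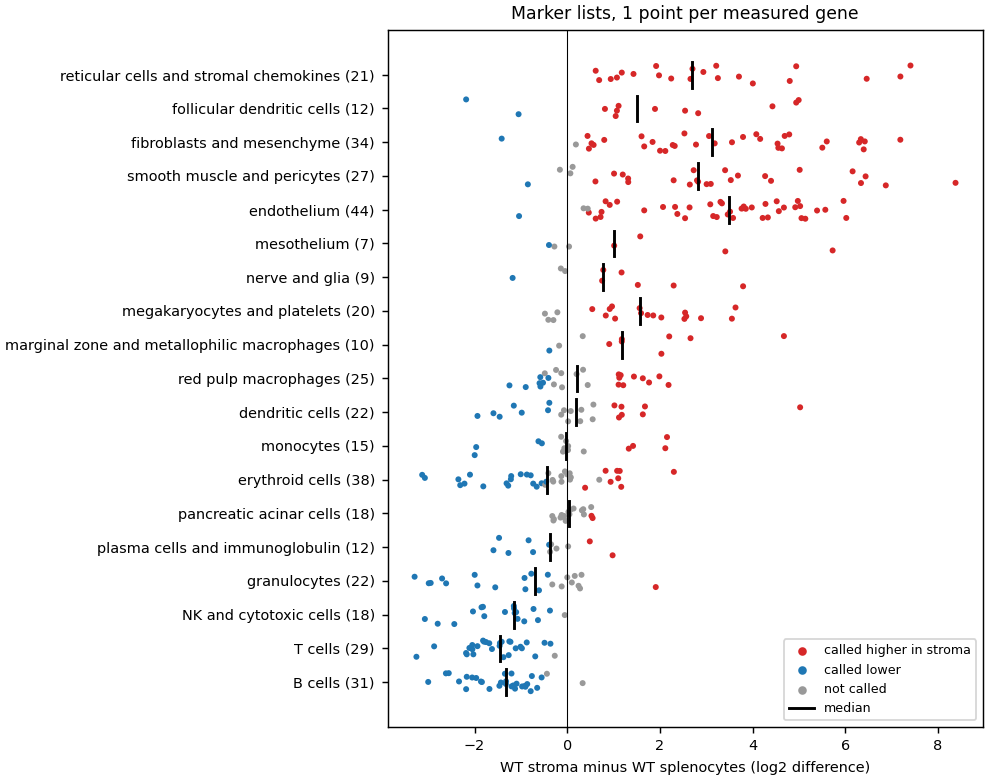
Log2 difference between WT stroma and WT splenocytes for every measured gene of 19 cell type lists (number of genes in parentheses), with genes called higher in stroma in red, called lower in blue and not called in grey. The black bar is the list median, which runs from 3.49 for endothelium to -1.46 for T cells.

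Smooth muscle genes held the largest difference of the comparison. Acta2, the actin of smooth muscle, was measured at 14.44 and 14.22 in stroma and at 6.25 and 5.65 in splenocytes. Both stroma arrays were far above both splenocyte arrays, 334-fold apart on average (log2 difference 8.38, SE 0.19, adjusted p = 4.54e-10), and the 2 dimmer Acta2 probes were also higher, by 5.13 and 4.19 on the log2 scale. Actg2, the enteric form of this actin, followed the same pattern, at 12.11 and 12.12 against 5.29 and 5.18 (118-fold, adjusted p = 3.52e-10). So did Tpm2, a tropomyosin that lies along actin filaments, at 11.37 and 11.48 against 4.92 and 5.05 (86.9-fold). Mylk, the kinase that starts smooth muscle contraction by phosphorylating myosin, was measured at 11.89 and 11.84 against 5.55 and 5.49 (81.1-fold). None of these groups overlapped. Myh11, the smooth muscle myosin heavy chain, was detected on neither splenocyte array and was at least 60.5-fold higher in stroma (10.84 and 10.72 against 4.70 and 4.54). Over the 27 measured genes of the list the median log2 difference was 2.83, or 2.65 with undetected genes at their bounds, against -0.036 over all genes. Tagln, Des, Smtn and the pericyte genes Mcam and Notch3 were among the 23 higher, with Des, the muscle intermediate filament, at least 6.70-fold and Notch3, a receptor of arterial mural cells, 10.6-fold. Cnn2, a calponin also made outside muscle, was lower, at 8.34 and 8.49 against 9.22 and 9.31 (log2 difference -0.85, adjusted p = 0.00115). The 3 members that did not pass lay between -0.16 and 0.12.

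The bases before the Acta2 start site are shown because this gene differed most and because serum response factor is known to control it through CArG boxes, the paired elements CC, a run of A or T, then GG. The sequence is from RefSeq (GRCm38.p6, chr19:34255374-34255623, minus strand, the 250 bases upstream of the start site), and capitals mark CArG boxes with up to 1 mismatch on either strand.
Acta2: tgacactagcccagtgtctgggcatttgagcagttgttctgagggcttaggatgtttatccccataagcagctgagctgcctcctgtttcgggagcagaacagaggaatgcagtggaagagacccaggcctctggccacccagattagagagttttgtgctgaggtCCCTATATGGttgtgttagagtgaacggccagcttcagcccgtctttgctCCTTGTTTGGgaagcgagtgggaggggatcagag
Both capital runs, at -84 to -75 and at -34 to -25 from the start site, carry 1 mismatch. Such near matches stood in the same window of 6 of the 19 smooth muscle genes called higher that have a promoter entry (31.6%) and of 18.9% of the 27025 genes in the table. Perfect boxes stood in 0 of the 19 and in 1.4% of all. A match describes these letters and is not evidence of binding.

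Genes of the extracellular matrix and of the fibroblasts that lay it down were higher as a group. Mgp, matrix Gla protein, an inhibitor of calcification, was measured at 11.63 and 11.71 in stroma and at 4.52 and 4.43 in splenocytes, where it was not detected, and was at least 112-fold higher. Prelp, a proteoglycan that anchors basement membranes to the tissue beneath, was at least 69.3-fold higher (11.07 and 10.89 against 4.50 and 4.60). Loxl1, which crosslinks elastin, was at least 66.2-fold higher, at 10.91 on both stroma arrays. For these genes the splenocyte arrays held only background, so the true ratio may be larger. Serpinh1, the collagen chaperone HSP47, was detected on all 4 arrays, at 11.64 and 11.65 against 5.21 and 5.28 (84.5-fold, SE of the log2 difference 0.14, adjusted p = 4.38e-10). Dcn, the collagen-binding proteoglycan decorin, reached 11.23 and 10.75 against 4.51 and 4.87, where 1 splenocyte array detected it (78.9-fold). Pdgfra, a growth factor receptor of fibroblasts, was at least 20.8-fold higher. In the fibroblast list the median was 3.12 (2.92 with bounds), Ogn did not pass (log2 difference 0.19, adjusted p = 0.458) and Thy1 was lower (9.86 and 9.74 against 11.22 and 11.20). Thy1 is a fibroblast antigen and also a defining surface protein of mouse T cells.

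Of 21 measured collagen chains, 16 were higher and 0 lower, and 9 were detected on neither splenocyte array. Col4a2, a chain of the basement membrane network, was measured at 11.98 and 12.09 against 6.42 and 6.06 (55.5-fold). Its partner Col4a1 gave 10.78 and 10.47 against 4.72 and 4.89 (56.4-fold, detected on 1 splenocyte array). Col6a1, of the beaded filaments around cells, was at least 64.2-fold higher. The fibrillar Col1a1 was at least 22.6-fold higher, while Col3a1 and Col1a2 had bounds of 3.52-fold and 2.60-fold. The 5 chains that did not pass lay between -0.27 and 0.37. Of 33 measured genes of elastic fibres and basement membranes, 29 were higher, with a median of 3.40 (3.09 with bounds). Among these 33, 14 were detected on neither splenocyte array. Ltbp2, a latent TGF-beta binding protein of microfibrils, was at 11.58 and 11.78 against 4.95 and 4.68 (117-fold, detected on 1 splenocyte array, so that the ratio rests on a signal near background), and Eln, elastin itself, gave 10.04 and 10.32 against 4.91 and 4.83 (39.6-fold). Hspg2 (perlecan) and Lamb2 (a laminin chain) were 35.9-fold and 21.8-fold higher. The 1 lower member, Emilin2, was at -0.80 on the log2 scale, a call lost without stroma replicate 1 (-0.56, adjusted p = 0.0519).

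Timp3, a metalloproteinase inhibitor bound to matrix, was at 11.29 and 11.35 in stroma against 5.40 and 4.86 (73.1-fold). Mmp2, a gelatinase, was at least 34.9-fold higher and Mmp14, the membrane enzyme that activates it, 22.4-fold (10.96 and 11 against 6.37 and 6.61). Mmp9, the gelatinase stored by neutrophils, was at 6.81 and 6.96 against 6.98 and 6.79, so its groups overlapped. Of 13 measured metalloproteinases and inhibitors, 9 were higher and 0 lower, and 4 of the 13 were detected on neither splenocyte array. The 13 integrin subunits showed both directions, 8 higher and 4 lower, and 4 of the 13 were detected on neither splenocyte array. Itga11, a collagen receptor subunit of fibroblasts, was at least 30.8-fold higher, and the widely shared Itgb1 was 4.51-fold higher. The 4 lower ones were the leukocyte subunits Itgal, Itgb2, Itgb7 and Itgae, by 2.40-fold, 2.56-fold, 2.31-fold and 1.97-fold. All 4 measured IGF binding proteins were higher, among them Igfbp7 (13.41 and 13.32 against 7.92 and 7.59, 48.9-fold) and Igfbp5 (11.27 and 10.91 against 5.65 and 5.07, 53.1-fold).

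Endothelial genes had the highest median of the cell type lists, 3.49 over 44 genes (3.30 with bounds). Mmrn2, an endothelial matrix glycoprotein, was measured at 11.18 and 10.93 in stroma and at 5.10 and 4.97 in splenocytes (65.1-fold, adjusted p = 9.9e-10). Plvap, which forms the diaphragms of fenestrated endothelium, was at 11.72 and 11.59 against 6.13 and 6.03 (47.6-fold). Flt1, a VEGF receptor, was at 11 and 10.82 against 5.88 and 5.67 (35.3-fold). In each of them both stroma arrays stood more than 4 log2 units above both splenocyte arrays. Junction genes followed, with Cldn5 (a tight junction claudin) 30.3-fold, Cdh5 (VE-cadherin, detected on 1 splenocyte array) 20.1-fold and the arterial connexin Gja4 31.5-fold higher. Ptprb, the phosphatase that restrains the Tie2 receptor, was at least 58.6-fold higher. Genes of sinusoidal endothelium were included: Stab2, a scavenger receptor for hyaluronan, was at 11.38 and 11.21 against 7.87 and 7.68 (11.4-fold), and the lectin Clec4g was 25.6-fold higher. The transcription factors Sox18 and Sox17, which specify vessels, were at least 12.7-fold and 9.84-fold higher. Vwf and Pecam1 are made by endothelium and also by platelets or leukocytes. Vwf was higher by 5.83-fold, while Pecam1 gave 9.3 and 8.94 against 8.45 and 8.90 (log2 difference 0.44, adjusted p = 0.115). Fli1, a factor shared by endothelium and blood cells, was the 1 lower member (5.79 and 5.22 against 6.23 and 6.86), a call lost without stroma replicate 2 (-0.76, adjusted p = 0.0954) and without splenocyte replicate 2 (-0.72, adjusted p = 0.136), and also with the authors' values (adjusted p = 0.0542) and with no detection filter (adjusted p = 0.0941).

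The chemokines and survival factors that organise the white pulp lay on the stromal side. Ccl21a, a T zone chemokine that binds CCR7, was at 12.84 and 12.83 in stroma and at 5.44 and 5.41 in splenocytes (170-fold, adjusted p = 3.52e-10), and Ccl21b was at 12.87 and 12.63 against 5.70 and 5.41 (146-fold). These 2 genes are near-identical copies, so their probes may read each other's transcript and the split between them is uncertain. Cxcl12, which retains CXCR4-bearing cells, was at 12.74 and 12.88 against 6.65 and 6.03 (88.3-fold). Cxcl13, the B cell follicle chemokine, was at 10.76 and 10.61 against 5.84 and 5.64 (30.8-fold). For each chemokine the 2 stroma arrays lay within 0.24 of each other and clear of the splenocyte arrays. Among survival factors, Tnfsf13b (BAFF, which sustains B cells) was 16.1-fold higher with 1 splenocyte array detecting it, Il7 (for T cells) at least 9.91-fold and Csf1 (for macrophages) at least 5.98-fold. Il33, an alarmin of stromal nuclei, was 9.53-fold higher, also with 1 splenocyte array detecting it. The study names Baff (Tnfsf13b) and Sdf1 (Cxcl12) among known LTβR targets that its array could not assess, for unspecified technical reasons. The values of these 2 genes carry that limit. Nkx2-3, a homeobox factor needed for spleen development, was at least 21.5-fold higher (9.28 and 9.3 against 4.52 and 4.45). Ch25h and Cyp7b1, enzymes in the synthesis of the oxysterol that guides B cells through EBI2, were at least 3.72-fold and 5.34-fold higher. Over the 21 genes the median was 2.70 (2.58 with bounds).

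The receptors of these chemokines were lower in stroma. Cxcr5, the receptor of Cxcl13, was at 5.29 and 5.12 in stroma and 7.43 and 7.31 in splenocytes (4.50-fold lower, adjusted p = 3.82e-07). Ccr7, the receptor of Ccl21, was at 8.02 and 8.09 against 9.86 and 10.13 (3.83-fold lower), and Cxcr4 was 2.26-fold lower. Of 11 chemokine receptors measured, 5 were lower and 1, the fractalkine receptor Cx3cr1 of monocytes and macrophages, was higher (2.51-fold). Of 25 chemokine ligands, 14 were higher and 7 lower, against 28.3% and 29% of all genes. Among these 25, 5 were detected on neither splenocyte array and 2 on neither stroma array. The lower ones included Ccl5 and Xcl1 of cytotoxic lymphocytes (5.42-fold and 3.53-fold). The same division held for lymphotoxin. The receptor Ltbr was at 6.41 and 6.77 in stroma against 5.40 and 5.63 (2.10-fold higher, adjusted p = 0.000709). The same Ltbr probe gave 6.78 and 7.14 in LTbR-KO stroma, no lower than in WT stroma (WT minus LTbR-KO -0.37, adjusted p = 0.251). Its signal therefore did not tell the genotypes apart, and the reason was not tested. The ligand chain Ltb was at 6.98 and 7.93 in WT stroma against 10.30 and 10.64 in splenocytes (8.08-fold lower, adjusted p = 4.64e-06), with a spread of nearly 1 log2 unit between the stroma arrays. Lta, Tnf and the second LTβR ligand Tnfsf14 were lower by 2.97-fold, 2.82-fold and 2.52-fold, with Lta and Tnfsf14 detected on 1 stroma array each. Of 26 measured genes linked to LTβR signalling, 18 were higher and 6 lower; this list was drawn up with the study's own interest in LTβR known and is not independent evidence. Among the NF-kB members, Relb was at 7.50 and 7.6 against 7.24 and 7.02 (log2 difference 0.41, adjusted p = 0.0324), a call lost without stroma replicate 1 (0.46, adjusted p = 0.0665), without stroma replicate 2 (0.36, adjusted p = 0.137) and without splenocyte replicate 2 (0.31, adjusted p = 0.205), and also under scaling to the 75th percentile (adjusted p = 0.152). Nfkb2 did not pass (0.13, adjusted p = 0.619).

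Madcam1, the addressin of the marginal sinus lining, was at 8.77 and 8.73 in stroma and 5.43 and 5.64 in splenocytes (9.3-fold, adjusted p = 2.02e-08). LTβR acts on target genes through NF-kB, whose sites begin with GGG and end with CC, and the upstream bases of Madcam1 and Cxcl13 are shown as 2 white pulp genes with such letters close to the start. Capitals mark a run of GGG, 5 bases of any kind and CC on either strand. Both windows are the 250 bases before the RefSeq start site on the plus strand of GRCm38.p6, Madcam1 at chr10:79664309-79664558 and Cxcl13 at chr5:95956689-95956938.
Madcam1: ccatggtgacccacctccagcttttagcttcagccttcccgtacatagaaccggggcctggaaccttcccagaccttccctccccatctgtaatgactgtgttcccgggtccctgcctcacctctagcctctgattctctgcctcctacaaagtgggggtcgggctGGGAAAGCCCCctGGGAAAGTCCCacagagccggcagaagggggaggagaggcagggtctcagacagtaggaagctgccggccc
Cxcl13: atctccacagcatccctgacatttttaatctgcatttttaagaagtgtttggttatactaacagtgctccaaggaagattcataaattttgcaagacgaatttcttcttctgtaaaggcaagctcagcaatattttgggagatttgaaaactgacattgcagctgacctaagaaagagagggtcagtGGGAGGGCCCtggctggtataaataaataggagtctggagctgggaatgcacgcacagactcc
Madcam1 holds 2 runs, -84 to -74 and -71 to -61, each matching on both strands with an offset of 1 base, and Cxcl13 holds 1, -63 to -54. The motif is short and common. It stood in 14 of the 18 reticular and stromal chemokine genes called higher that have an entry (77.8%), in 63.6% of the B cell genes called lower and in 45.4% of all 27025 windows.

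Of 12 measured follicular dendritic cell genes, 10 were higher and 2 lower, with a median of 1.5. Mfge8, the bridging protein by which dying B cells are cleared in germinal centres, was at 13.24 and 13.18 in stroma against 8.89 and 8.67 (21.6-fold). Clu, the secreted chaperone clusterin, was at 12.49 and 12.11 against 7.45 and 7.15 (31.9-fold, SE of the log2 difference 0.18, adjusted p = 5.13e-09). Prnp, the prion protein, was at 11.78 and 11.88 against 8.96 and 9.04 (7.10-fold). In all of them the fractions were separated by far more than the arrays of a fraction. The 2 lower members, the IgE receptor Fcer2a and the IgG receptor Fcgr2b, are also B cell proteins and were lower by 4.54-fold and 2.07-fold. The stroma arrays disagreed for Fcer2a, at 5.32 and 6.53.

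Sparse cell types of the framework were detectable. Of 24 nerve and glia genes on the array 9 were measured, 6 of them higher and 1 lower. Of these 9, 5 were detected on neither splenocyte array and entered the test through stroma alone, so a higher call was likely for them. Pmp22, a myelin protein also made by fibroblasts, was at least 11-fold higher, Sox10, the glial transcription factor, at least 3.56-fold (6.86 and 6.53 against 4.45 and 4.35), and Stmn2, a neuronal microtubule regulator, at least 1.95-fold. The lower member was Cnp (2.26-fold). Of 7 mesothelial genes 4 were higher, among them Wt1, a factor of mesothelium that is also needed for spleen formation, at 8.25 and 8.30 against 5.10 and 4.62 (10.7-fold, detected on 1 splenocyte array). Slpi was lower there by 0.39 on the log2 scale (adjusted p = 0.0348), a call lost without stroma replicate 1 (adjusted p = 0.108), without stroma replicate 2 (adjusted p = 0.103) and without splenocyte replicate 1 (adjusted p = 0.219). Pancreatic acinar genes, which report exocrine tissue adhering to the spleen, were present in both fractions: 16 of 18 did not pass, and the median level was 6.64 and 6.90 in stroma against 6.90 and 6.67. Amy2a5 (amylase) and Cela2a (an elastase) were higher by 0.55 and 0.52. The Amy2a5 call was lost without stroma replicate 1 (adjusted p = 0.0613) and without splenocyte replicate 1 (adjusted p = 0.0584), and the Cela2a call without stroma replicate 1 (adjusted p = 0.101) and without either splenocyte array (adjusted p = 0.0522 and 0.07). Under scaling to the 75th percentile neither passed (adjusted p = 0.345 and 0.179).

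**Figure D3:**
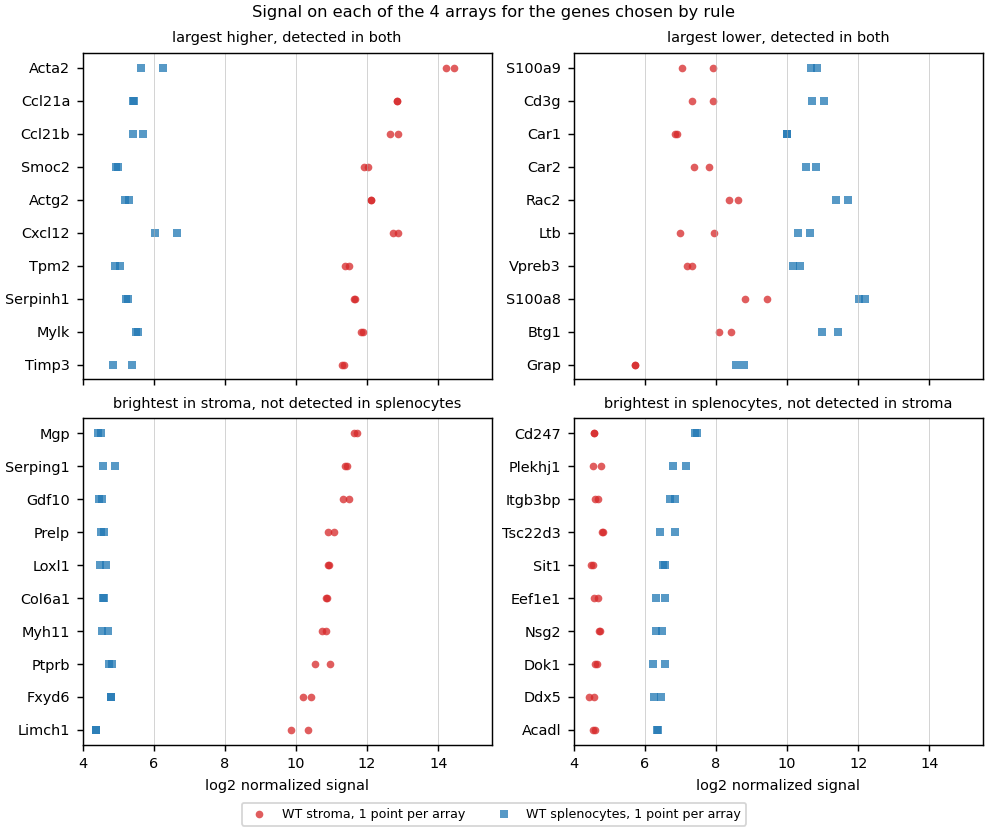
Log2 normalized signal on each of the 2 WT stroma arrays (red circles) and 2 WT splenocyte arrays (blue squares) for 40 genes chosen by rule. Upper panels hold the 10 largest differences in each direction among genes detected on all 4 arrays, and lower panels the 10 brightest called genes that were detected in one fraction and on neither array of the other; in every row the red and blue points are separate.

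Macrophage genes did not share 1 direction. Of 10 measured genes of marginal zone and metallophilic macrophages, which line the marginal sinus, 7 were higher in stroma. Siglec1 (CD169), the sialic acid receptor of metallophils, was at 7.38 and 7.78 against 4.99 and 4.85 (6.33-fold). Timd4, a phosphatidylserine receptor, was at 7.28 and 7.14 against 5.33 and 5.02 (4.09-fold). Marco and Cd209b, scavenger and lectin receptors of marginal zone macrophages, were 2.27-fold and 1.88-fold higher. The 1 lower call, Cd209a (-0.39, adjusted p = 0.0364), was lost without stroma replicate 1 (adjusted p = 0.143), without stroma replicate 2 (adjusted p = 0.0805) and without splenocyte replicate 1 (adjusted p = 0.226). With all arrays it was also lost at an offset of 50 (adjusted p = 0.113), under cyclic loess (0.061), under scaling to the 75th percentile (0.288) and with the authors' values (0.261). The brightest probe of Nr1h3, the nuclear receptor needed by these cells, was 2.26-fold higher, but its dimmer probe was lower by 0.46 on the log2 scale. Red pulp macrophage genes gave no common direction, with 10 higher, 7 lower and 8 not passing of 25 (median 0.20), against 28.3% higher and 29% lower over all genes. Fewer of them were lower when either splenocyte replicate was left out. Mertk and Axl, receptors for apoptotic cells, were 4.56-fold and 3.40-fold higher, and Slc40a1, the iron exporter ferroportin, was 2.16-fold higher (12.76 and 12.78 against 11.60 and 11.71). Adgre1, the defining macrophage antigen, was at 8.06 and 8.36 against 8.12 and 7.89, with overlapping groups. Treml4 was 2.37-fold lower.

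Platelet and megakaryocyte genes were mostly higher in stroma, 16 of 20 higher and 0 lower (median 1.58, or 1.35 with bounds). Among these 20, 5 were detected on neither splenocyte array. P2rx1, an ATP-gated channel of platelets, was at 8.40 and 8.47 against 4.77 and 4.83 (12.4-fold, 1 splenocyte array detecting it). Treml1, a receptor stored in platelet granules, was 5.94-fold higher and Gp5, a subunit of the von Willebrand factor receptor, 3.33-fold. Pf4 was at 6.84 and 7.04 against 5.17 and 4.65 (4.09-fold, detected on 1 splenocyte array). The list shares Vwf with endothelium and Sparc with fibroblasts. Erythroid genes did not move as one. Hba-a1, an alpha globin, was the top-ranked signal on all 4 arrays (14.95), where quantile normalization sets equal values, so no ratio can be given; the authors' spline-normalized values for it were higher in stroma by 1.06 on the log2 scale, and scaling to the 75th percentile gave -0.18. Of 38 erythroid genes 18 were lower and 8 higher. The carbonic anhydrases Car1 (6.89 and 6.85 against 10.01 and 9.99) and Car2 (7.81 and 7.38 against 10.53 and 10.81) were 8.76-fold and 8.41-fold lower. Fech, which inserts iron into haem, was 4.96-fold lower, with 1 stroma array detecting it. In contrast the red cell membrane genes Kel (a blood group protease, 9.88 and 10.06 against 8.90 and 8.77) and Ank1 (ankyrin) were 2.19-fold and 2.15-fold higher, as was the anion exchanger Slc4a1 (13.55 and 13.64 against 12.64 and 12.67, 1.91-fold), a call lost under scaling to the 75th percentile (0.13 on the log2 scale, adjusted p = 0.588). The Ank1 value is that of its brightest probe. A dimmer Ank1 probe was higher by 0.60 on the log2 scale (adjusted p = 0.0287) and another did not pass (0.23, adjusted p = 0.166).

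B cell genes were lower in stroma, 29 of 31, with a median of -1.32. Vpreb3, a chaperone of the immature B cell receptor, was at 7.20 and 7.33 in stroma and 10.37 and 10.16 in splenocytes (8-fold lower, SE of the log2 difference 0.16, adjusted p = 7.43e-08). Tnfrsf13c, the receptor through which BAFF keeps B cells alive, was at 7.65 and 7.74 against 10.32 on both splenocyte arrays (6.14-fold lower), and the coactivator Pou2af1 was 5.05-fold lower. Ly6d was 5.88-fold lower. The receptor signalling chains differed less by their brightest probes, Cd79a by 3.63-fold (10.03 and 10.32 against 11.92 and 12.15) and Cd79b by 2.24-fold (11.51 and 11.76 against 12.85 and 12.74), and the dimmer Cd79b probe was lower by 3.19 on the log2 scale. All these genes were still detected on both stroma arrays. Blnk and Ebf1 did not pass. The brightest Blnk probe gave -0.44 (adjusted p = 0.0653) and its dimmer probe -2.64. The brightest probe passed under scaling to the 75th percentile (-0.67, adjusted p = 0.012), without background correction (adjusted p = 0.0476), in both fits limited to the compared groups (adjusted p = 0.0429 and 0.0407) and without stroma replicate 2 (adjusted p = 0.0434). Ebf1, which stromal and adipocyte precursors also express, gave 0.33 (adjusted p = 0.167), a difference that passed without stroma replicate 2 (0.61, adjusted p = 0.0241).
The octamer ATGCAAAT is bound by the Oct factors with which Pou2af1 acts, and Vpreb3, the B cell gene that differed most, holds it near its start. The window is RefSeq GRCm38.p6 chr10:75948050-75948299, plus strand, the 250 bases before the start site, with the octamer (here on the opposite strand) in capitals.
Vpreb3: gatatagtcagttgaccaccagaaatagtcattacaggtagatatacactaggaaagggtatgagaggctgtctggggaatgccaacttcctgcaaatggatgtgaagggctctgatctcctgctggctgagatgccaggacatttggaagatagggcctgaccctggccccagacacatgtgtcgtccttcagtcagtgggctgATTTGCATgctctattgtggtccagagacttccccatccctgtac
The match lies at -45 to -38. It was the 1 match among the windows of 22 B cell genes called lower that have an entry (4.55%), against 1.61% of all 27025 windows. The octamer also stood in 1 of 19 smooth muscle genes (5.26%) and 1 of 18 reticular genes (5.56%) called higher, so it did not set the B cell list apart.

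T cell genes were lower in 28 of 29 cases, with a median of -1.46. Cd3g, of the T cell receptor complex, was at 7.31 and 7.90 against 11.03 and 10.70 (9.55-fold lower, adjusted p = 3.98e-07). Cd3d and Cd3e of the same complex were 4.32-fold and 4.13-fold lower, and the coreceptors Cd8b1 (9.35 and 9.56 against 11.56 and 11.72) and Cd4 (5.43 and 5.40 against 6.95 and 6.80) 4.54-fold and 2.75-fold. Cd247, the zeta chain of the complex, was detected on both splenocyte arrays (7.47 and 7.41) and on neither stroma array (4.57 and 4.56), at least 6.15-fold lower. Sit1, an adaptor that dampens T cell receptor signals, behaved likewise (at least 3.29-fold lower). The exception, the T lineage factor Bcl11b, gave 9.14 and 9 against 9.38 and 9.3, a difference of -0.27 that did not pass (adjusted p = 0.194). Of 18 NK and cytotoxic genes 17 were lower (median -1.15, or -1.10 with bounds). Nkg7, of cytotoxic granules, was at 7.70 and 8.03 against 10.70 and 10.62 (6.94-fold lower), and Klrd1 (CD94) was 3.60-fold lower. Klrc1 did not pass (-0.05, adjusted p = 0.786).

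Most granulocyte genes were lower or did not pass. S100a9 and S100a8, the calprotectin subunits of mature neutrophils, were among the 10 largest decreases. S100a9 was at 7.03 and 7.92 in stroma against 10.85 and 10.68 (9.81-fold lower) and S100a8 at 8.82 and 9.43 against 12.21 and 12.02 (7.94-fold lower), and the stroma arrays differed from each other by up to 0.89. The granule genes Ngp, Retnlg and Lcn2 were 7.71-fold, 6.5-fold and 6.12-fold lower, and Camp 1.71-fold. Mpo, a primary granule enzyme made by precursors, was higher by its brightest probe (8.80 and 8.86 against 7.03 and 6.81, 3.76-fold) and by a second probe (1.21 on the log2 scale), while the other, dim probe was lower by 0.40. Over the list 13 of 22 were lower, 1 higher and 8 did not pass. Dendritic cell genes gave 7 higher and 7 lower of 22, near the shares over all genes (28.3% and 29%). Clec9a, of cross-presenting dendritic cells, was at 7.89 and 7.45 against 6.02 and 5.96 (3.20-fold higher), and Zbtb46, a factor of classical dendritic cells, was 2.03-fold higher, whereas Irf4 and Ccr7 were 3.01-fold and 3.83-fold lower. Of 12 plasma cell genes 6 were lower, including Mzb1 (10.39 and 10.81 against 11.86 and 11.88, 2.41-fold). Xbp1, the secretory pathway factor, was 1.97-fold higher, as was the chaperone Hsp90b1 by 0.49 on the log2 scale (adjusted p = 0.0305), a call lost on leaving out any 1 of the 4 arrays (adjusted p = 0.12 and 0.0636 without stroma replicates 1 and 2, 0.118 and 0.0966 without splenocyte replicates 1 and 2). It was also lost under scaling to the 75th percentile (adjusted p = 0.282), with the authors' values (0.058) and with no detection filter (0.0636). MHC class II genes were lower in 8 of 9 cases by small amounts (median -0.80). H2-Ab1 did not pass by its brightest probe (-0.11, adjusted p = 0.623), which was lower under cyclic loess (-0.48, adjusted p = 0.0385) and under scaling to the 75th percentile (-0.94, adjusted p = 0.000708), and its dimmer probe gave -1.61.

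General cell functions also differed. Of 48 measured cytosolic ribosomal protein genes 31 were lower in stroma and 1 higher (median -0.73, against -0.036 over all genes). Rpl29 was the lowest, at 7.99 and 7.73 against 10.48 and 10.31 (5.79-fold lower). The 1 higher call, Rps15a (0.53, adjusted p = 0.0314), was lost on leaving out any 1 of the 4 arrays (adjusted p = 0.0533 and 0.134 without stroma replicates 1 and 2, 0.122 and 0.0985 without splenocyte replicates 1 and 2). It was also lost at an offset of 50 (adjusted p = 0.0601), without background correction (0.0694) and with no detection filter (0.0851). Oxidative phosphorylation subunits, which build the respiratory chain, were lower in 42 of 62 cases and higher in 5, or 3 without splenocyte replicate 2 (median -0.69). Ndufs4, of complex I, was at 7.75 and 8.17 against 9.92 and 9.87 (3.82-fold lower). Cell cycle and replication genes were lower in 24 of 49 cases and higher in 4, or 2 without stroma replicate 2 or either splenocyte array (median -0.41). Cdk1, the mitotic kinase, was at 6.73 and 6.79 against 8.93 and 8.86 (4.39-fold lower), and Birc5 was 2.52-fold lower, but Kif2c, a mitotic kinesin, was 2.16-fold higher. The median of all genes was near 0, so these list medians are shifts relative to it.

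Stress-related genes went both ways. Of 28 immediate early genes, which respond within minutes to stimuli such as tissue handling, 10 were higher, 10 lower and 8 did not pass (median -0.04). Over all genes 28.3% were higher and 29% lower. Ccn2, a matrix-associated target of mechanical signalling, was at 9.67 and 9.80 in stroma and undetected in splenocytes (at least 29.3-fold higher). Jun was at 6.27 and 6.80 against 5.04 and 5.20 (2.67-fold higher), Fos overlapped (5.33 and 5.07 against 5.02 and 5.47), and Klf2 and Dusp2, which are abundant in resting or activated lymphocytes, were 2.86-fold and 5.09-fold lower. Of 14 heat shock genes 9 were higher, led by the small chaperones of muscle, Cryab (9.92 and 10.09, at least 35.4-fold higher) and Hspb1 (11.68 and 11.63 against 6.21 and 6.59, 38.2-fold higher). Hspb8 was 15-fold higher, with 1 splenocyte array detecting it. Of 10 measured Hox genes, which encode position, 6 were higher, including Hoxa5 (6.99 and 6.86, at least 4.18-fold) and Hoxb4 (7.82 and 7.50 against 6.09 and 6.10, 2.97-fold). Hoxc10, near background, was lower by 0.43 on the log2 scale (adjusted p = 0.0243), a call lost without stroma replicate 1 (adjusted p = 0.131) and without splenocyte replicate 1 (adjusted p = 0.172), and also at an offset of 50 (adjusted p = 0.0788), under scaling to the 75th percentile (0.181) and with the authors' values (0.0649). Of 8 Wnt ligands and frizzled receptors 5 were higher and 0 lower, and 4 of the 8 were detected on neither splenocyte array. Of 18 semaphorins, plexins and neuropilins 9 were higher, 2 lower and 7 did not pass. Among these 18, 6 were detected on neither splenocyte array and 1 on neither stroma array. Wnt5a, a non-canonical Wnt ligand, was at least 8.63-fold higher, Sfrp1, a secreted Wnt antagonist, at least 11.3-fold (8.80 and 7.92), and the guidance ligand Sema3f 35.7-fold (10.58 and 10.38 against 5.50 and 5.13).

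The genes chosen by size of difference included others outside these groups. Smoc2, a calcium-binding matricellular protein, was at 11.92 and 12.04 in stroma against 4.95 and 5 (128-fold). Gdf10, a secreted BMP family member, was at least 92.7-fold higher (11.49 and 11.31 against 4.46 and 4.53), and Serping1, the C1 inhibitor of complement, at least 93.0-fold (11.37 and 11.43 against 4.90 and 4.56). Fxyd6, which modulates the sodium pump, and Limch1, an activator of non-muscle myosin, were at least 43.4-fold and 37.6-fold higher. On the splenocyte side the brightest called genes detected on neither fresh WT stroma array had small bounds. Some were detected in other stroma preparations, for example Dok1 on both cultured WT stroma arrays (7.34 and 7.05) and Sit1 on both LTbR-KO arrays. Plekhj1, a pleckstrin homology protein, was at 6.79 and 7.15 against 4.77 and 4.55 (at least 4.46-fold lower in stroma). Itgb3bp, a centromere protein despite its symbol, was at least 3.88-fold lower. Tsc22d3, the glucocorticoid-induced leucine zipper, was at least 3.5-fold lower, and Eef1e1, Nsg2, Dok1, Ddx5 and Acadl had bounds between 2.89-fold and 3.09-fold. Among genes detected on all 4 arrays, Rac2, which activates the phagocyte NADPH oxidase, was at 8.61 and 8.35 against 11.37 and 11.71 (8.32-fold lower). Btg1, an anti-proliferative factor of lymphocytes, was at 8.44 and 8.07 against 10.99 and 11.44 (7.79-fold lower), and Grap, an adaptor of lymphocyte receptors, at 5.73 and 5.71 against 8.57 and 8.78 (7.76-fold lower).

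The other stroma preparations place these levels. In LTbR-KO stroma Acta2 was at 13.64 and 13.76 and Cxcl12 at 12.55 on both arrays, while Madcam1 was detected on neither array (4.53 and 4.44) and Ccl21a was at 9.25 and 9.34. The median over the T cell genes was 7.48 and 7.94 in LTbR-KO stroma, above 6.08 and 6.62 in WT stroma, and the pancreatic median was 8.42 and 8.64 against 6.64 and 6.90. In cultured WT stroma, adherent spleen cells grown for weeks, the list medians were near background for B cells (4.74 and 4.90) and endothelium (4.85 and 4.84). Only 15 of the 31 B cell genes and 23 of the 44 endothelial genes were detected on neither cultured array. Some members stayed bright there, such as Blnk (9.86 and 9.42) and Vwf (8.37 and 8.11). Medians of myeloid lists were not near background: the red pulp macrophage median was 10.69 and 10.72 there against 9.51 and 9.50 in fresh WT stroma, and the monocyte median 8.56 and 8.65 against 7.29 and 7.32. The fibroblast median there was 8.13 and 7.92, close to the 8.56 and 8.52 of fresh WT stroma. These comparisons share the WT stroma arrays with the one above, and the values are given as a description.

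**Figure D4:**
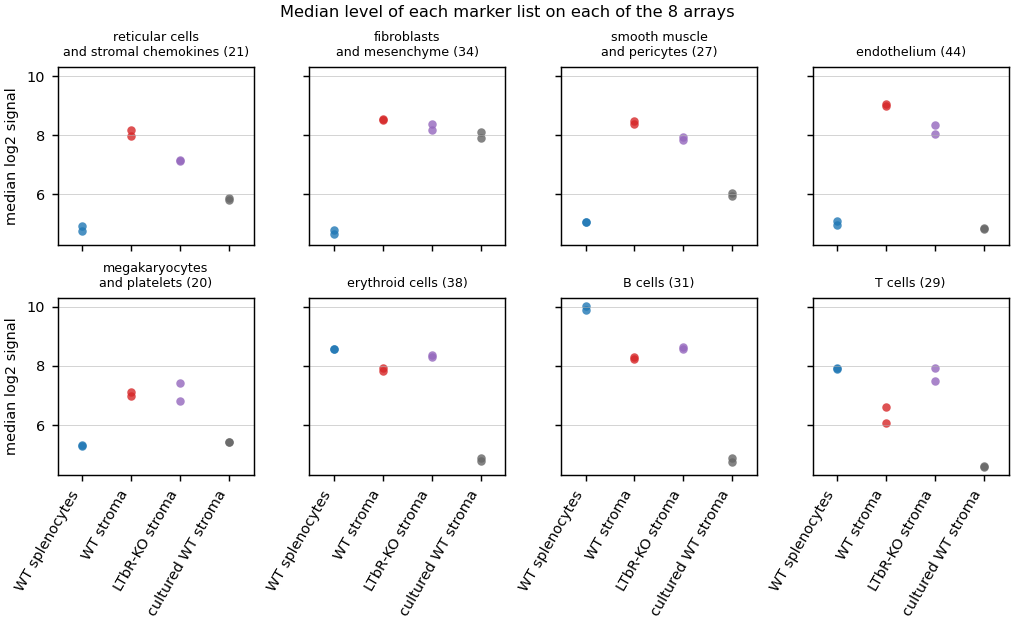
Median log2 normalized signal of 8 marker lists on each of the 8 arrays (1 point per array, 2 per group; number of genes in parentheses). WT splenocytes are lowest for the reticular, fibroblast and smooth muscle lists and highest for B cells; cultured WT stroma stays near 8 for fibroblasts and falls below 5 for B cells, T cells and endothelium.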

How the data were processed

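Spleen RNA of 8 samples in 4 groups of 2 was hybridised to MouseRef-8 bead arrays. The authors read the arrays with GenomeStudio, and the deposited table used here holds bead intensity per probe, neither normalized nor background-subtracted, with a detection p-value per probe and array. The authors' second deposited table, intensity after cubic spline normalization and background subtraction, served as an alternative. Median bead intensity was 55.95 to 60.17 on the 4 compared arrays, and 10660 to 11283 probes were detected on each. The number of arrays limits the precision.

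Signals were background-corrected with normexp, the control beads' mean and spread being estimated through the detection p-values (offset 16), quantile-normalized over the 8 arrays and put on the log2 scale (limma 3.58.1, statmod 1.5.0, R 4.3.3). Group means were fitted with lmFit and eBayes over the 4 groups. The contrast was WT stroma minus WT splenocytes, with Benjamini-Hochberg adjustment over the probes tested and a threshold of 0.05. GEO's platform annotation gave 1 symbol to 20984 probes and several or none to 3629, of which none was named; 20968 matched RefSeq by gene ID. The brightest tested probe stood for a gene. Of the 1292 genes with several tested probes, 89 had probes called in opposite directions. Figures were drawn with matplotlib 3.10.9. The fitting code was tested on simulated data.

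The genes named were the 10 largest differences in each direction among genes detected on all 4 arrays, the 10 brightest called genes detected in one fraction and on neither array of the other, and examples from the gene lists. Members, lists and examples were chosen with earlier results of these data known, so the lists are descriptions. Same-numbered arrays of the 2 groups did not deviate together (r = -0.065 across probes), and replicate numbers were not used as pairs. Alternatives were the background correction, offset, normalization, detection filter, arrays in the fit, replicate block, variance trend, threshold and each array left out.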

Additional observations from a re-analysis of the deposited data

How the results depend on the processing

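The count of probes called, 6905 (2990 higher and 3915 lower), stayed within 1.5 times of itself under the alternative normalizations, offsets and fits. It was 6574 with scaling to the 75th percentile, 6590 with the authors' normalized values, 6629 with cyclic loess and 7159 with only the compared groups fitted. With a replicate block, 6852 probes were called (2981 higher and 3871 lower). Leaving out 1 array at a time gave 5623 to 6109 calls, 2453 to 2708 of them higher and 3170 to 3401 lower. Counts that moved further did so by construction. Requiring detection on both arrays of both groups left 9303 probes to test and 1868 higher, and requiring more than a 2-fold difference left 3367 (1640 higher and 1727 lower). Under cyclic loess the median difference over probes was 0 in place of -0.1, and 48.5% of the calls were higher in place of 43.3%. Of the 231 genes evaluated singly, 215 were called and 0 reversed under the alternatives run. Without 1 array 10 of them lost their call in at least 1 of the 4 fits, and 9 did so in a setting that kept the threshold and all arrays; the cause was not tested.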
